A study of Mus musculus with 9 samples.

Results

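The 10 genes described here encode transcription factors of the erythroid and megakaryocyte lineages, the blood lineages that make red cells and platelets. They are *Gata1*, *Gata2*, *Klf1*, *Tal1*, *Gfi1b*, *Nfe2*, *Zfpm1*, *Myb*, *Lmo2* and *Ldb1*, chosen by gene symbol from the 27179 genes of the count table, and all 10 were found. Poly(A) RNA from whole mandibles, teeth included, was sequenced from 5 wild type (WT) mice and 4 mice labelled *FcγRIIB*-/-, a genotype in which the inhibitory Fc receptor for IgG is deleted throughout the body. All were 6 months old, and the labels name no treatment. The *FcγRIIB*-/- mice are described as males on the C57BL/6 background, and the sex and strain of the WT controls are not stated separately. The question was how the mandibular levels of these factors differed between the genotypes.

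Each mouse gave 1 library of between 21453880 and 28991631 counts. Levels are given as CPM, the count scaled by the TMM-normalized library size, and fold changes are those of edgeR's quasi-likelihood test as libraries labelled *FcγRIIB*-/- over WT, with p adjusted by Benjamini-Hochberg over the 16329 genes that passed a filter on low counts. *Fcgr2b*, the targeted gene, had no lower level in mice labelled *FcγRIIB*-/- (27.8 ± 2.90 CPM, SD, n = 4) than in WT (24.0 ± 8.28 CPM, SD, n = 5), with a log2 fold change of 0.21 (SE 0.20, adjusted p = 0.442). Without WT replicate 2 it was 0.46 (adjusted p = 0.0131). The groups are therefore named by their labels. Defining genes of bone and tooth were present in all libraries: the summed level of 12 such genes was 55529 to 92571 CPM in WT and 77480 to 106243 CPM in the libraries labelled *FcγRIIB*-/-, with 3 of 12 lower and 3 of 12 higher. The count of lower ones was 1 without WT replicate 3 or without replicate 2 of the libraries labelled *FcγRIIB*-/-. Over all genes tested, 19.3% were called lower and 14% higher.

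In erythroid precursors GATA1 and TAL1 bind DNA together, bridged by LMO2 and LDB1, and GATA1 recruits the cofactor FOG1, which *Zfpm1* encodes. KLF1 binds CACCC boxes and drives the adult β-globin gene, GFI1B is a repressor of both lineages, and NF-E2, whose large subunit *Nfe2* encodes, is needed for platelet release. GATA2 and MYB act earlier, in stem and progenitor cells, and *Gata2* is also expressed in mast cells and endothelium.

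The sequences before the annotated start sites of 5 of these genes are shown because *Klf1*, *Gfi1b* and *Gata1* had the lowest fold changes of the 10, *Tal1* encodes the DNA-binding partner of GATA1, and *Gata2* is the relative of *Gata1* whose level did not pass the test. Each is the 250 bases before a RefSeq start site on GRCm38.p6, written 5′ to 3′ on the strand of the gene, and capitals mark matches, on either strand, to a GATA motif, an E-box or a CACCC box. The GATA motif was searched as AGATAA with the variants TGATAA or else AGATAG or else TGATAG, the E-box as CAGNTG, and the CACCC box as CACACCC with the variants CGCACCC or else CCCACCC. Matches did not overlap in these windows. The *Klf1* window is chr8:84901732-84901981 (+), that of *Gfi1b* is chr2:28621983-28622232 (-), that of *Gata1* is chrX:7967911-7968160 (-) and lies within the annotated span of the gene, that of *Tal1* is chr4:115056176-115056425 (+), and that of *Gata2* is chr6:88193641-88193890 (+).
Klf1: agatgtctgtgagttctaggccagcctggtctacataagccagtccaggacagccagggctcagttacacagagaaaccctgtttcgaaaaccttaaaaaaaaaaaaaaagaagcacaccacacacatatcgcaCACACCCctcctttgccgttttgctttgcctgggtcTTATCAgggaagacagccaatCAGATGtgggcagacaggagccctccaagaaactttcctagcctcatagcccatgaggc
Gfi1b: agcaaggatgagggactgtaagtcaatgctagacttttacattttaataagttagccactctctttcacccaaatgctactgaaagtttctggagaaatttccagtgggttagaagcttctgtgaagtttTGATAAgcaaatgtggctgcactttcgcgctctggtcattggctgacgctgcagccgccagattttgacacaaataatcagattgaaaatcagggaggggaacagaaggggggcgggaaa
Gata1: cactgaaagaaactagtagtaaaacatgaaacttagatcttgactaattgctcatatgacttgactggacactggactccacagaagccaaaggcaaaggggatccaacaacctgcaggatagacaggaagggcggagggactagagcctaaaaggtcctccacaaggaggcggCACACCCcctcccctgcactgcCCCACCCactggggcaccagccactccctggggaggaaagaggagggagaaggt
Tal1: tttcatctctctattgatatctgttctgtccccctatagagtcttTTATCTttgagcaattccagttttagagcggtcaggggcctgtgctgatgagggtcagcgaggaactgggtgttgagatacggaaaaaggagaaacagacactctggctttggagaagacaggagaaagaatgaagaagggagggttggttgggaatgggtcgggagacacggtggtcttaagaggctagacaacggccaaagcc
Gata2: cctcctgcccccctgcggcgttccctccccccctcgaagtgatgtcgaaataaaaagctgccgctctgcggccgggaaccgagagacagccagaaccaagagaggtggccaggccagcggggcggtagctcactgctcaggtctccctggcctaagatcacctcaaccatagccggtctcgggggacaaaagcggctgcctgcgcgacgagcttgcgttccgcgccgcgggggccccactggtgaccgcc

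The *Klf1* window held a CACCC box that began 116 bases before the start site, a GATA motif on the reverse strand at 80 bases and an E-box at 59 bases. The *Gfi1b* window held a GATA motif at 120 bases. The *Gata1* window held CACCC boxes at 76 and 54 bases, and the *Tal1* window a GATA motif on the reverse strand at 205 bases. The *Gata2* window held no match. *Tal1* and *Gata2* each have another window, chr4:115057561-115057810 (+) and chr6:88198414-88198663 (+), not shown, and neither held a match. RefSeq windows were matched for 8 of the 10 genes, 12 windows in all, of which 4 held a GATA motif, 5 a CACCC box, 2 an E-box and 0 the NF-E2 motif TGAGTCA. Among all 32851 windows of the same length, 26.5% held the GATA motif, 23.6% the CACCC box, 44.8% the E-box and 4.46% the NF-E2 motif. *Ldb1*, whose level did not pass the test, also held matches in its windows.

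Of the 10 factors, 8 were lower in the libraries labelled *FcγRIIB*-/-, 0 were higher, and *Gata2* and *Ldb1* did not pass the test. Of all 16329 genes tested, 19.3% were called lower and 14% higher. The median log2 fold change of the 10 was -2.04, against 0.0055 over all genes tested. In 8 of 10 the groups did not overlap, with every library labelled *FcγRIIB*-/- below every WT library, which held for 17.5% of all genes. A log2 fold change of -1 or below was reached by 7 of the 8, against 6.55% of all genes, and one of -2 or below by 5, against 2.66% of all genes. DESeq2 also called 8 lower and 0 higher, where it called 18% of the genes it tested lower and 14.9% higher. All 10 passed the filter on low counts. The tissue is bulk, so fewer cells of a type and less RNA per cell cannot be told apart.

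**Figure D1:**
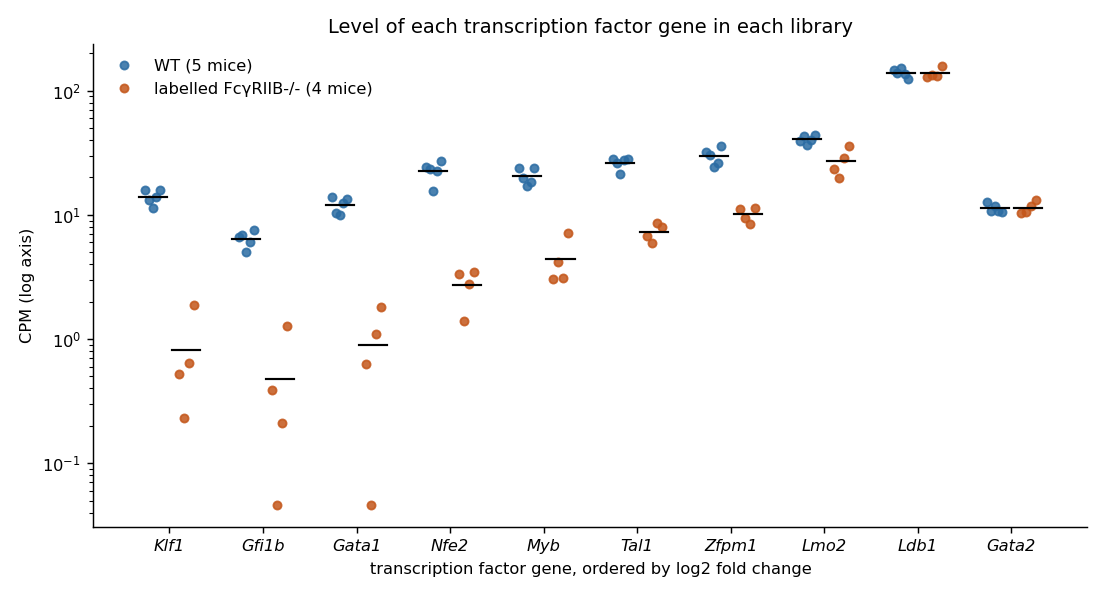
Level of each transcription factor gene in CPM (log axis) in each of the 5 WT libraries (blue) and the 4 libraries labelled *FcγRIIB*-/- (orange), with a line at each group's mean and the genes ordered by log2 fold change. The groups are apart for the 8 genes from *Klf1* to *Lmo2* and overlap for *Ldb1* and *Gata2*.

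Markers of some other cells moved with the genotype. The summed level of 10 skeletal muscle genes was 8058 to 18915 CPM in WT and 19214 to 33325 CPM in the libraries labelled *FcγRIIB*-/-, with 6 of 10 higher, and the summed level of 12 neutrophil genes was 1164 to 3560 CPM and 144 to 428 CPM, with 12 of 12 lower. The 12 B lineage genes summed to 49.9 to 114 CPM and 14.2 to 34.4 CPM, with 11 of 12 lower. The 8 T cell genes summed to 14.2 to 65.4 CPM and 9.15 to 13.4 CPM, with 2 of 8 lower, or 1 without WT replicate 2, without WT replicate 5, or without any 1 of the libraries labelled *FcγRIIB*-/-. Over all genes tested, 19.3% were called lower and 14% higher, and the T cell count lay near the former share. No marker of these lists was at 0 in all libraries labelled *FcγRIIB*-/-. The part of these differences in the results on the 10 factors was not tested.

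The GATA factors differed from each other. *Gata1* (gene ID 14460, chromosome X, 7959260 to 7976663), which encodes the GATA factor of red cell, megakaryocyte, mast cell and eosinophil precursors, had 13.9, 10.4, 9.95, 12.3 and 13.4 CPM in WT replicates 1 to 5. It had 0.631, 0.0462, 1.10 and 1.82 CPM in the libraries labelled *FcγRIIB*-/-, replicates 1 to 4. The lowest WT library was thus above the highest library of the other group. The mean of the latter was 0.901 ± 0.752 CPM (SD, n = 4), or 7.49% of the WT mean, a log2 fold change of -3.76 (SE 0.48, adjusted p = 0.000615). The value of replicate 2 rested on 1 count, for which the exact Poisson 95% interval is 0.0253 to 5.57 counts and covers counting error only. Without that library the log2 fold change was -3.37, and without replicate 4 it was -4.30.

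*Gata2* (chromosome 6, 88193891 to 88207032) had 12.7, 10.7, 11.8, 10.7 and 10.5 CPM in WT and 10.4, 10.5, 11.8 and 13.1 CPM in the libraries labelled *FcγRIIB*-/-. The groups overlapped over nearly their whole ranges. The log2 fold change was 0.02 (SE 0.10, adjusted p = 0.894), with means of 11.3 ± 0.937 CPM (SD, n = 5) and 11.5 ± 1.28 CPM (SD, n = 4). Markers of other cells that express *Gata2* did not move together. Mast cell and basophil genes were lower in 10 of the 10 that could be tested, of 13 written. The 13 summed to 43.0 to 61.3 CPM in WT and 11.5 to 15.8 CPM in the libraries labelled *FcγRIIB*-/-. The filter on low counts helped to set the 10 of 10, since a rare gene could pass it through WT alone. *Fcer1a* did so, with 16 to 31 counts in WT and 1 to 2 in the other group. Of 14 endothelial genes, 4 were higher and 1 was lower (2 without WT replicate 2 or without replicate 1 of the other group), and their summed level was 698 to 803 CPM and 761 to 862 CPM. Over all genes tested, 14% were called higher and 19.3% lower. The part of either cell type in the *Gata2* level was not tested.

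*Klf1* (chromosome 8, 84901982 to 84905291), the erythroid Krüppel-like factor, had the lowest fold change of the 10. It had 15.9, 13.2, 11.4, 13.8 and 15.8 CPM in WT and 0.526, 0.231, 0.635 and 1.88 CPM in the libraries labelled *FcγRIIB*-/-. All of the latter were below every WT library, and replicate 2 was again the lowest and replicate 4 the highest. The log2 fold change was -4.14 (SE 0.40, adjusted p = 0.000162), from 14.0 ± 1.91 CPM (SD, n = 5) to 0.817 ± 0.726 CPM (SD, n = 4). Without replicate 4 it was -4.88. Replicate 2 held 5 counts (exact Poisson 95% interval 1.62 to 11.7, counting error only).

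*Zfpm1* (chromosome 8, 122281856 to 122337862), which encodes the GATA1 cofactor FOG1, was lower by less. Its level was 31.8, 30.1, 24.2, 26.1 and 36.2 CPM in WT and 11.2, 9.47, 8.47 and 11.4 CPM in the libraries labelled *FcγRIIB*-/-. The latter lay close to one another and below all WT libraries. The log2 fold change was -1.55 (SE 0.14, adjusted p = 9.5e-05).

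The members of the TAL1, LMO2 and LDB1 complex fell by unequal amounts or did not pass the test. *Tal1* (chromosome 4, 115056426 to 115071755), which encodes the E-box-binding subunit, had 28.1, 26.1, 21.4, 27.5 and 28.2 CPM in WT and 6.69, 5.96, 8.56 and 8.01 CPM in the libraries labelled *FcγRIIB*-/-, for a log2 fold change of -1.85 (SE 0.13, adjusted p = 4.5e-05). *Lmo2* (chromosome 2, 103957903 to 103981878), the bridging LIM-only protein, had 39.3, 43.4, 36.4, 40.3 and 43.6 CPM in WT and 23.5, 19.9, 28.5 and 35.6 CPM in the other group, a log2 fold change of -0.60 (SE 0.15, adjusted p = 0.0110). For *Lmo2* the groups were apart by a narrow margin, between 35.6 and 36.4 CPM, whereas for *Tal1* the gap was wide. *Ldb1* (chromosome 19, 46031525 to 46048145), the LIM-binding scaffold that many tissues express, had 147, 139, 153, 135 and 124 CPM in WT and 129, 134, 131 and 158 CPM in the other group. Its groups overlapped, with a log2 fold change of -0.01 (SE 0.08, adjusted p = 0.906). The exons of *Ldb1* overlap those of *Pprc1* on the opposite strand, which had 1149 counts on average in WT and 860 in the other group. The strand setting of the counting is not given in the sources used here, so the share of *Pprc1* reads in the *Ldb1* count is uncertain.

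*Gfi1b* and *Nfe2* act in both lineages. *Gfi1b* (chromosome 2, 28609450 to 28621982), which encodes a zinc finger repressor, had 6.63, 6.86, 4.97, 6.02 and 7.50 CPM in WT and 0.385, 0.0462, 0.212 and 1.27 CPM in the libraries labelled *FcγRIIB*-/-. Its log2 fold change was -3.78 (SE 0.52, adjusted p = 0.000833), and it was -4.79 without replicate 4 of the latter and -3.41 without replicate 2, which held 1 count. *Nfe2* (chromosome 15, 103248212 to 103258403) had 24.1, 23.4, 15.7, 22.5 and 27.4 CPM in WT and 3.33, 1.39, 2.75 and 3.45 CPM in the other group, a log2 fold change of -3.04 (SE 0.25, adjusted p = 7.6e-05). In both genes no library crossed between the groups. *Myb* (chromosome 10, 21124930 to 21160984), which maintains dividing progenitors of several blood lineages, had 23.8, 19.7, 17.0, 18.4 and 23.7 CPM in WT and 3.05, 4.21, 3.09 and 7.15 CPM in the other group. The highest of the latter, replicate 4, was below the lowest WT library, and the log2 fold change was -2.24 (SE 0.24, adjusted p = 0.000282).

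The libraries kept much of their order from gene to gene. Among the libraries labelled *FcγRIIB*-/-, replicate 4 was the highest in 7 of the 8 lower genes and replicate 2 the lowest in 6 of 8. Among WT libraries, replicate 3 was the lowest in 8 of 8. Over all 10 genes, replicate 4 of the former group was the highest in 9, among them *Gata2* and *Ldb1*. It also had the fewest counts (21453880) and the lowest TMM factor (0.921) of any library. The part of the scaling in this order was not tested, and the order was not compared with that of all genes. Relative to its mean, the spread of *Gata1*, *Klf1* and *Gfi1b* was wider in the libraries labelled *FcγRIIB*-/-, with coefficients of variation of 83.5%, 88.9% and 114%, than in WT, where they were between 13.6% and 14.9%. These low levels rest on few counts, and the difference in spread was not tested.

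**Figure D2:**
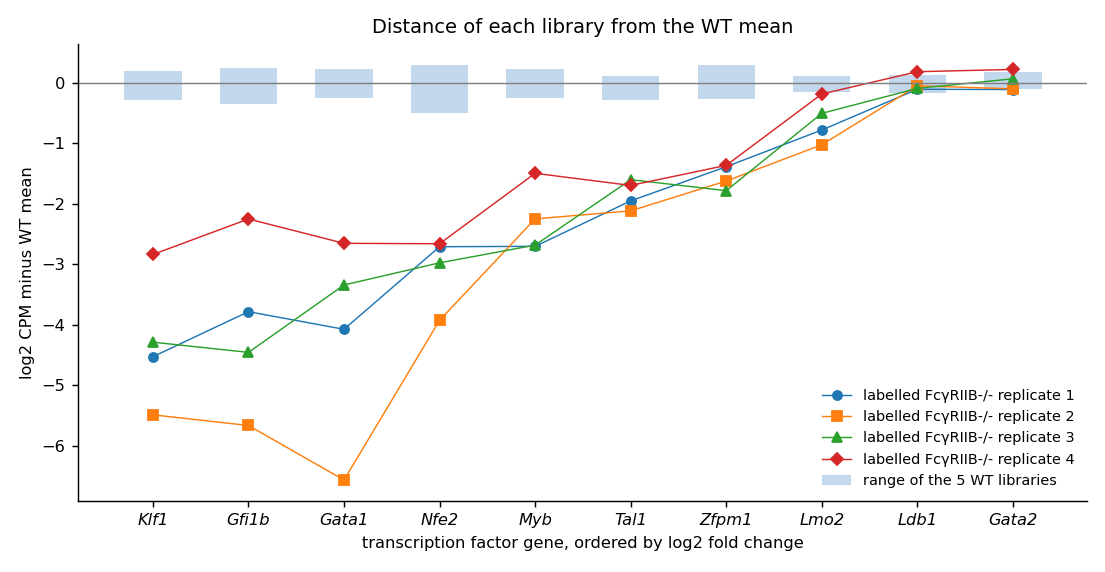
Log2 CPM (prior count of 2) of each library labelled *FcγRIIB*-/- minus the WT mean, by gene, with the range of the 5 WT libraries as a shaded bar. All 4 libraries lie below the WT range from *Klf1* to *Lmo2*, and replicate 2 lies farthest below for *Klf1*, *Gfi1b* and *Gata1*.

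Per kilobase of exon, the order of the levels differed between the groups. In WT, *Ldb1* (30.3 CPM per kb) and *Lmo2* (18.7 CPM per kb) were highest, and *Myb* (2.29 CPM per kb) and *Gata2* (2.09 CPM per kb) were lowest, with *Klf1* at 9.16, *Zfpm1* at 8.47, *Nfe2* at 7.56, *Tal1* at 6.00, *Gata1* at 4.93 and *Gfi1b* at 3.50 CPM per kb. In the libraries labelled *FcγRIIB*-/-, *Gata2* (2.12 CPM per kb) stood below only *Ldb1* (30.0), *Lmo2* (12.4) and *Zfpm1* (2.89 CPM per kb), and *Klf1* (0.534), *Myb* (0.490), *Gata1* (0.369) and *Gfi1b* (0.261 CPM per kb) were lowest. Neighbours such as *Klf1*, *Zfpm1* and *Nfe2* in WT, or *Myb* and *Gata2* in WT, and these last 4 genes in the other group, differed by less than the SD of the levels between mice. *Gata2* thus stood with *Myb* at the bottom of the order in WT and above 6 of the 10 in the other group.

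Whether pairs of the factors changed by unequal amounts was tested on 10 ratios of genes within a library, which the scaling of libraries does not change apart from the prior count, with a two-sided exact permutation test over all 126 splits of the 9 mice and Benjamini-Hochberg adjustment over the 10. *Gata1* over *Gata2* was -0.24 to 0.35 in log2 in the 5 WT libraries and -3.88, -6.39, -3.33 and -2.79 in the other 4, a difference of -4.18 (exact permutation p = 0.00794, the smallest the design can give, adjusted p = 0.0132). *Gata1* was also lower relative to *Ldb1* (-4.15), *Zfpm1* (-2.62), *Tal1* (-2.32) and *Myb* (-1.88), and *Tal1* relative to *Lmo2* (-1.22), each with the groups apart and the same adjusted p. Replicate 2 of the libraries labelled *FcγRIIB*-/-, with its 1 count of *Gata1*, set part of these sizes: without it *Gata1* was lower by a log2 ratio of -3.42 relative to *Gata2*, -3.35 to *Ldb1*, -1.85 to *Zfpm1*, -1.61 to *Tal1* and -1.06 to *Myb* (exact permutation adjusted p = 0.0255 for each). *Lmo2* over *Ldb1* differed by -0.61 (exact permutation p = 0.0159, adjusted p = 0.0227).

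The calls of the remaining ratios depended on which mice were included. *Gata1* over *Nfe2* differed by -1.09 (exact permutation p = 0.0317, adjusted p = 0.0397), but passed in 1 of 9 fits that left out a mouse, the fit without replicate 4 of the libraries labelled *FcγRIIB*-/- (adjusted p = 0.0223), and had adjusted p between 0.0595 and 0.143 without any other mouse. Its size was -0.58 without replicate 2 of that group and -1.0 or below, down to -1.33, in the other 7 fits that lost the call. With a WT mouse left out, the smallest adjusted p of any of the 10 ratios was 0.0408, so these fits could resolve less. *Gata1* over *Klf1* differed by 0.13 (exact permutation adjusted p = 0.778), and by 0.53 without replicate 2 (adjusted p = 0.0255). *Gata1* over *Gfi1b* differed by -0.12 (exact permutation adjusted p = 0.778), and by -0.53 without replicate 3 (adjusted p = 0.0446). In the 4 libraries labelled *FcγRIIB*-/- the log2 ratio of *Gata1* to *Klf1* ran from -1.30 to 0.72 and in WT from -0.33 to -0.17.

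**Figure D3:**
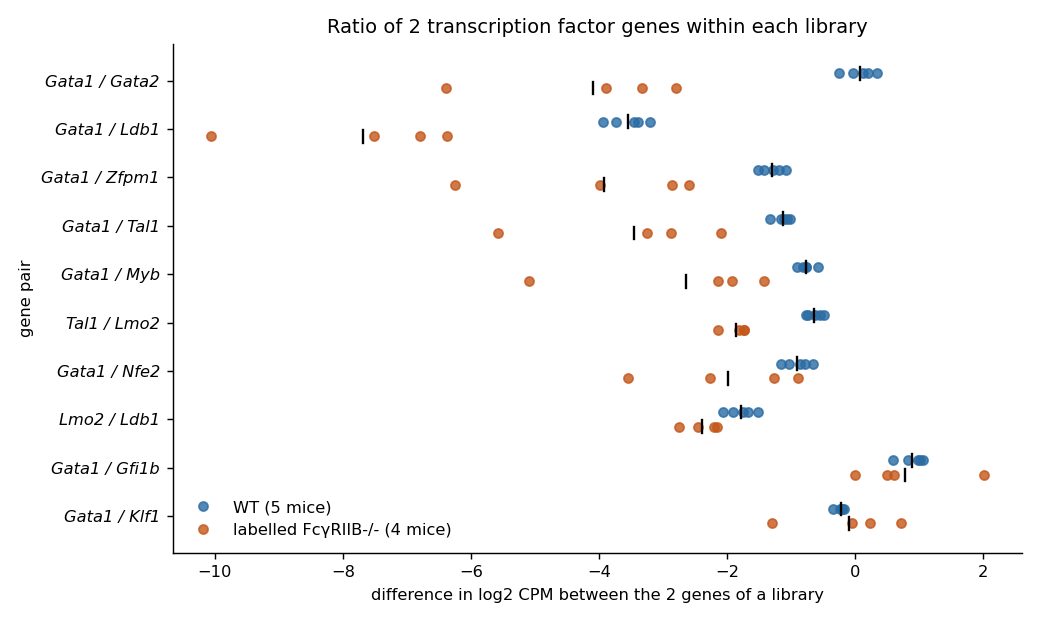
Difference in log2 CPM (prior count of 2) between the genes of each pair within each library, for 5 WT mice (blue) and 4 mice labelled *FcγRIIB*-/- (orange), with a bar at each group's mean. The groups are apart for *Gata1* over *Gata2*, *Ldb1*, *Zfpm1*, *Tal1* and *Myb*, and they overlap for *Gata1* over *Gfi1b* and over *Klf1*.

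Genes of the red cell lineage were mostly lower. Of 42 written in the list, among them genes of globin, heme synthesis, the red cell membrane, metabolism and the cell cycle, 39 were in the table and tested, and 32 of 39 were lower and 0 higher, with a median log2 fold change of -1.92. *Trim58*, an erythroid ubiquitin ligase, had the lowest value, -5.62 (SE 0.45, adjusted p = 7.65e-05), from 3.41 ± 0.849 CPM (SD, n = 5) to 0.0671 ± 0.0637 CPM (SD, n = 4). It held 80, 90, 78, 74 and 123 counts in WT but only 2, 1, 0 and 3 in the other group. *Trim58* thus passed the filter on low counts through WT alone, and the size of its fold change is uncertain. *Slc4a1*, the band 3 anion exchanger, fell by 4.66 on the log2 scale. *Alas2*, the erythroid enzyme that starts heme synthesis, had 110, 101, 91.3, 101 and 129 CPM in WT and 3.68, 5.45, 8.85 and 16.5 CPM in the other group. For *Alas2* no library crossed between the groups, and replicate 4 of the libraries labelled *FcγRIIB*-/- was again the highest. The 7 that did not pass were *Fhdc1*, *Slc25a38*, *Slc2a1*, *Urod*, *Ank1*, *Bpgm* and *Uros*, with log2 fold changes between -0.29 and -0.07. The heme enzymes *Urod* and *Uros* and the glucose transporter *Slc2a1* serve most cells, and the part of other cells in these levels was not tested.

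The 4 globin genes in the table summed to 1806 to 2095 CPM in WT and to 137, 148, 257 and 513 CPM in the libraries labelled *FcγRIIB*-/-, replicates 1 to 4. The 35 other genes of the list summed to 2054 to 2473 CPM in WT and to 998, 933, 1015 and 1144 CPM. *Hba-a1* and *Hba-a2*, and *Hbb-bs* and *Hbb-b1*, are near-identical copies whose reads the counting could split, so their separate values are uncertain.

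Platelet and megakaryocyte genes were lower as well. Of 24 such genes, 21 were lower and 0 higher, with a median log2 fold change of -1.38. *Tubb1*, the platelet β-tubulin, had the lowest value (-3.08, SE 0.25, adjusted p = 7.65e-05), with 12.4, 16.0, 8.98, 11.6 and 18.4 CPM in WT and 2.07, 1.11, 1.61 and 1.52 CPM in the other group. The 3 that did not pass were *F2rl2*, *Thbs1* and *Selp*, the last with a log2 fold change of -0.01 (SE 0.10). *Selp* and *Thbs1* are also expressed outside platelets, *Selp* in endothelium. The part of other cells in the level of any gene of this list, lower or not, was not tested.

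**Figure D4:**
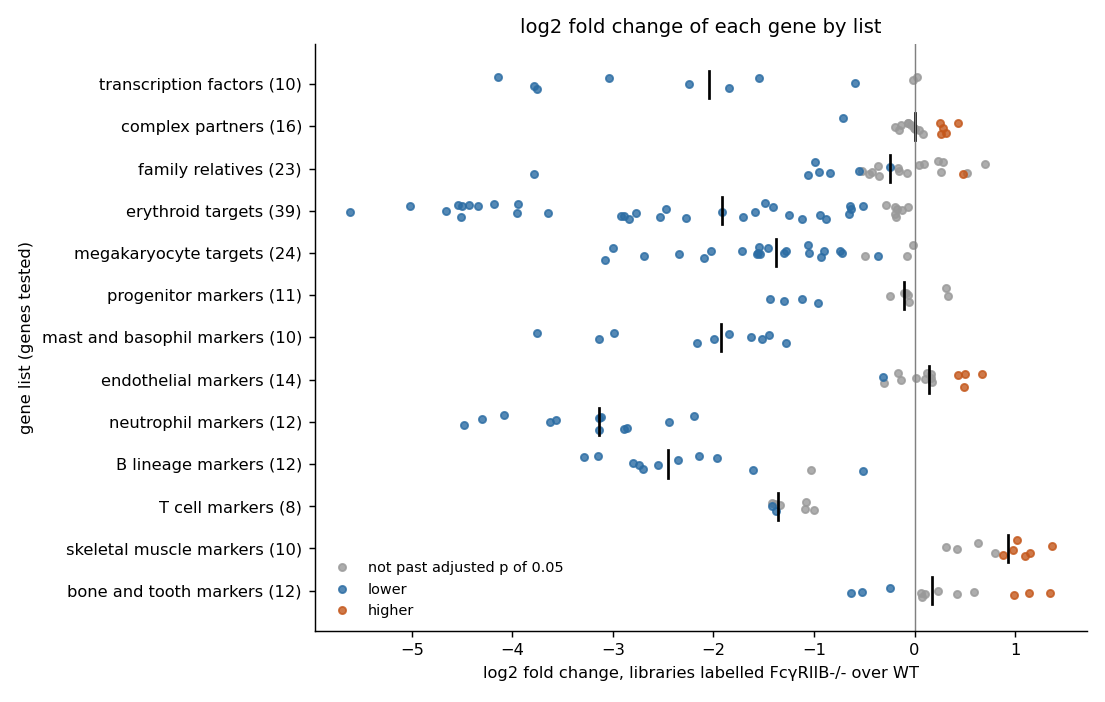
Log2 fold change, libraries labelled *FcγRIIB*-/- over WT, of each tested gene (points) in the 10 transcription factors and the 12 other lists, with the median of each list as a bar and points coloured by the edgeR call at an adjusted p of 0.05. The erythroid list lies below 0 in all 39 genes, and the complex partners scatter around 0.

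The proteins that work with these factors, most of which nearly all cells make, did not pass the test in 10 of 16. Of these 16 partners, *Rcor1*, a corepressor that GFI1B recruits together with the demethylase *Kdm1a*, was lower (-0.71, SE 0.13, adjusted p = 0.00268), from 28.9 ± 1.46 CPM (SD, n = 5) to 17.6 ± 3.72 CPM (SD, n = 4), and 5 were higher. The higher ones were *Runx1* (0.44), *Ssbp4* (0.31), *Tcf4* (0.29), *Hdac2* (0.27) and *Ssbp3* (0.26 on the log2 scale), and their number was 3 without WT replicate 1 or without replicate 2 or 4 of the other group, and 2 without its replicate 3. *Kdm1a* had a log2 fold change of -0.0039 (SE 0.05, adjusted p = 0.963). The median of the partners was 0.0016. Over all genes tested, 14% were called higher and 19.3% lower.

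Among 25 relatives of the 10 factors, 23 were tested, and 7 were lower and 1 higher, against 19.3% and 14% of all genes tested. *Gfi1*, the relative of *Gfi1b* that acts in granulocyte and lymphoid precursors, had the lowest value (-3.79, SE 0.39, adjusted p = 0.000208), with 3.88, 3.77, 3.55, 4.63 and 9.49 CPM in WT and 0.455, 0.323, 0.254 and 0.405 CPM in the other group. WT replicate 5, the highest for *Gfi1*, was also the highest for the summed neutrophil genes. *Lyl1*, the relative of *Tal1* in blood precursors, was lower too (-1.06, SE 0.17, adjusted p = 0.00159), as were *Mybl2* (-0.99), *Bach2* (-0.95), *Klf3* (-0.84), *Bach1* (-0.56) and *Klf13* (-0.24 on the log2 scale). *Lmo1*, a relative of *Lmo2*, was the one that was higher (0.49, SE 0.14, adjusted p = 0.0233), but not without replicate 2 of the libraries labelled *FcγRIIB*-/-, and 2 relatives were higher without WT replicate 1 or WT replicate 5. *Gata3* had a log2 fold change of -0.16 (SE 0.23, adjusted p = 0.611).

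Genes that mark stem and progenitor cells were split. Of 12, 11 were tested, 4 were lower and 0 higher, with a median of -0.11. The shares over all genes tested were 19.3% lower and 14% higher. The lower ones were *Slamf1* (-1.44), *Flt3* (-1.30), *Angpt1* (-1.11) and *Cd48* (-0.96 on the log2 scale), and their number was 2 without WT replicate 2 or 5 or without replicate 1 or 3 of the other group. *Kit*, the receptor for stem cell factor, had 48.6 to 66.6 CPM in WT and 47.3 to 57.7 CPM in the other group, and its log2 fold change was -0.07 (SE 0.11, adjusted p = 0.665). *Cd34* had -0.11 (SE 0.07, adjusted p = 0.261). Mast cells express *Kit* and endothelium expresses *Cd34*, and their part in these levels was not tested. The part of other cells in the levels of the 4 lower genes was not tested either.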

How the data were processed

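Poly(A) libraries of whole mandibles were sequenced from 5 WT mice and 4 mice labelled *FcγRIIB*-/-. The authors ran Trim Galore, aligned to mm10 using HISAT and assigned reads to genes using featureCounts, and the deposited values are raw counts. The annotation and strand setting are not given in the sources used here. Samples were grouped by their labels, and 1 column that matches no sample was not used. Rows without a symbol (1030) carry a gene ID, held 0.0971% of counts and were kept.

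Counts were tested in R 4.3.3 with edgeR 4.0.16 (limma 3.58.1), using filterByExpr with a minimum count of 10, TMM and the quasi-likelihood test of genotype, called at an adjusted p of 0.05, with DESeq2 1.42.0 as an alternative. SEs were derived from each log2 fold change and its F statistic, and 2 was the prior count of log2 CPM. The test was tested on simulated counts. The 16 pairs of libraries within a genotype had a chi-square per degree of freedom of 11.9 to 114, so no library was a repeat of another of its genotype; pairs between genotypes were not compared. P-values set the difference between the groups against the spread between mice. Exon lengths are those of merged GENCODE transcripts, and gene coordinates and start site windows those of RefSeq on GRCm38.p6. The genes and lists were chosen with earlier results of these data known. Within a list the text names the largest and smallest fold changes, the most expressed genes and those against the main direction; other genes that passed or did not pass were named after their values were seen. Alternatives were other scaling, filters, a fold limit, a replicate block, another prior count and leaving out each mouse. Some genes covered by these rules are left out of the text.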

Additional observations from a re-analysis of the deposited data

How the results depend on the processing

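In every setting tried, 8 of the 10 factors were lower and 0 higher, except that a limit of 1 on the absolute log2 fold change left 7 lower, and without each mouse the log2 fold changes were -4.88 to -3.84 for *Klf1*, -4.79 to -3.41 for *Gfi1b* and -4.30 to -3.37 for *Gata1*. The values near 0 changed sign: *Gata2* was -0.0063 with the replicate block and -0.049 to 0.084 without each mouse, *Ldb1* was 0.0033 with upper quartile factors and -0.085 to 0.033 without each mouse, and *Gata1* over *Klf1* was -0.0097 with a prior count of 0.5. Without each mouse the ratio of *Gata1* to *Klf1* ran from -0.15 to 0.53, that to *Gfi1b* from -0.53 to 0.14 and that to *Nfe2* from -1.46 to -0.58, and *Fcgr2b* from 0.13 to 0.46; the cause was not tested. Numbers of calls without each mouse were 2 to 5 for partners that were higher, 0 to 2 for relatives that were higher, 2 to 4 for progenitor genes that were lower and 0 to 1 that were higher, 1 to 2 for T cell genes and 1 to 2 for endothelial genes that were lower, and 1 to 3 for bone and tooth genes that were lower. With DESeq2, 1 progenitor gene was higher. The replicate numbers do not pair the mice, which are different animals: same-numbered libraries correlated at 0.097, 0.028, -0.11 and -0.074 after the group means were removed. With the replicate block, in which WT replicate 5 has no partner, 2410 genes were lower and 1594 higher, against 3144 and 2289 without it; 1 partner and 0 relatives were higher, 2 progenitor genes were lower and 10 muscle genes were higher. Depth limits *Gata1*, *Klf1* and *Gfi1b* in the libraries labelled *FcγRIIB*-/-, where they rest on 1 to 37 counts.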

Other observations

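Over the 9 mice, with the genotype means removed, the genes of at least 2 in average log2 CPM whose levels followed a factor most closely were listed as a description, without a test. For *Gata1*, among 12959 genes compared, they were *Hbb-b1* (Pearson r = 0.968), *Pf4* (0.963), *Mrpl43* (0.953), *Prss34* (0.939) and *Gp5* (0.939). *Hbb-b1* is a β-globin gene, *Pf4* and *Gp5* are platelet genes and *Prss34* is a basophil protease. For *Klf1* they were *Mfsd2b* (0.977), *Epor*, the erythropoietin receptor (0.974), *Mpig6b* (0.966), *U2af1l4* (0.961) and *Iscu* (0.958). For *Gfi1b* they included *Ghdc* (0.987), *Itga2b* (0.982), *Mpig6b* (0.981) and *Lyl1* (0.978). For *Gata2*, whose level did not pass the test, they were *Mtg1* (0.965), *Zbtb48* (0.946), *Zfp639* (0.933), *Kmt5c* (0.932) and *Dus1l* (0.932), and for *Ldb1* they were *Mapt* (0.988), *Slx1b* (0.987), *Npff* (0.984), *Zfp579* (0.984) and *Rbm5* (0.984). The points share libraries and depth, and replicates 2 and 4 of the libraries labelled *FcγRIIB*-/- lie at the ends for *Gata1*, *Klf1* and *Gfi1b*.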
